A study of Homo sapiens with 6 samples.

Results

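The genes described here are the proteasome genes, taken as every gene name that consists of PSM, a letter from A to G and a number. This rule found 45 of the 17222 gene names counted, and all 45 passed the filter on low counts that left 14660 genes to be tested. Besides 14 subunits of the core particle (7 alpha and 7 constitutive beta), 2 immunoproteasome subunits and 20 genes of the regulatory particle (6 ATPases and 14 non-ATPases), it takes in 4 activators, 1 inhibitor and 4 chaperones of core assembly, which are not subunits. Among the 14 non-ATPases, *PSMD5*, *PSMD9* and *PSMD10* are chaperones of base assembly and not subunits either. They are counted with the regulatory particle below. *PSMB10*, the other immunoproteasome gene, was not analysed here. RNA was sequenced from H226 cells, an established human lung squamous carcinoma line, 48 h after transient transfection with a control antisense oligonucleotide (ASO_CTRL, 3 libraries) or with ASO_LINC#3, directed against the long noncoding RNA *SWINGN* (3 libraries). The comparison asks which genes change when that RNA is depleted. Each condition is 1 oligonucleotide in 1 line, and p-values measure the spread between these libraries. The study describes its experiments in general as biological triplicates, and the labels do not say whether these replicates were separate cultures. For these libraries the study's methods write of BJ cells, whereas H226 is the line given by the labels and by the results text. The *SWINGN* transcript was not analysed here, so the depth of the knockdown was not checked.

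The proteasome is the protease that breaks down ubiquitin-tagged proteins in the cytosol and nucleus. Its core is a barrel with alpha subunits in the outer rings and beta subunits in the inner rings, and only the beta subunits *PSMB5*, *PSMB6* and *PSMB7* cut peptides, with chymotrypsin-like, caspase-like and trypsin-like activity. In cells exposed to interferon, PSMB8, PSMB9 and PSMB10 take their places and change which peptides reach MHC class I. The regulatory particle caps the barrel, binds ubiquitin chains, removes them and unfolds the substrate with its ATPases.

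Counts on genes ranged from 3686828 in ASO_LINC#3 replicate 3 to 10546786 in ASO_CTRL replicate 3. ASO_LINC#3 replicate 3 stood apart from replicates 1 and 2, and ASO_CTRL replicate 1 stood apart for *PSMA2*, so values without them are given beside the results they move most. Of the squamous markers, *KRT5* was present at 94.4 to 117 counts per 1000000 reads on tested genes (CPM) in control and 62.6 to 77.8 CPM in ASO_LINC#3 libraries, *KRT6A* was at or below 0.0954 CPM in control and at 0.856 to 2.06 CPM in ASO_LINC#3 libraries, and the other 4 were not analysed here. The simple epithelial keratins *KRT7*, *KRT8*, *KRT18* and *KRT19* summed to 11700 to 12640 CPM in control and 7103 to 12430 CPM in ASO_LINC#3 libraries. The 4 mesothelial markers (*CALB2*, *MSLN*, *WT1*, *UPK3B*) were also present, at a sum of 634 to 834 CPM in control and 209 to 323 CPM in ASO_LINC#3 libraries. *CALB2* carried most of this difference (a mean of 601 against 154 CPM). *UPK3B* was lower as well, at 43.9 to 52.8 CPM in control and 20.1 to 35.2 CPM in ASO_LINC#3 libraries. *MSLN* had means of 29.1 and 31.1 CPM, and *WT1* had means of 46.0 and 36.6 CPM with overlapping ranges. The part of this shift in the values below was not tested. *CD14*, the 1 immune marker analysed of 3, was at 0.735 to 2.17 CPM over the 6 libraries. *THY1*, the 1 fibroblast marker analysed of 4, was at 108 to 125 CPM in control and 90.7 to 129 CPM in ASO_LINC#3 libraries.

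Proteasome transcripts as a whole took a similar share of the reads in both conditions, and 1 single member passed the thresholds. Of the counts on genes they held 0.742%, 0.779% and 0.765% in the control libraries (replicates 1 to 3), whereas the ASO_LINC#3 libraries gave 0.777%, 0.783% and 0.787%. The shares overlap, with the 3 ASO_LINC#3 libraries at the upper end. A gene was called changed where its adjusted p was below 0.01 and its log2 fold change exceeded 0.5 in size, in edgeR's quasi-likelihood test with Benjamini-Hochberg adjustment over all 14660 genes. One member, *PSMB7*, was called higher and 0 were called lower, that is 2.22% of the members, where 7.54% of all tested genes were called (4.91% higher and 2.63% lower). Of the members, 4 had an adjusted p below 0.05 (*PSMB7*, *PSMB9*, *PSMB3* and *PSMG1*), beside 18.0% of all tested genes (10.3% higher and 7.78% lower), and 10 had an unadjusted p below 0.05, 4 of them higher and 6 lower, beside 32.4%. As RNA was taken from bulk cells, fewer cells with a transcript and less of it per cell cannot be told apart.

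The members were measured more precisely than the average gene. The median standard error of a log2 fold change was 0.144 over the members and 0.204 over all tested genes. The members' log2 fold changes ran from -1.43 (*PSMA2*) to 0.54 (*PSMB7*), with 19 above 0 and 26 below it and a median of -0.09, beside -0.0027 over all genes. Of the 45, 28 lay within 0.25 of no change and 42 within 0.5, so that 6.67% lay beyond 0.5, beside 30.3% of all tested genes. In 15 members the 3 ASO_LINC#3 libraries did not overlap the 3 control libraries (8 higher and 7 lower), which is 33.3% of them, against a background of 36.1% of all tested genes.

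**Figure D1:**
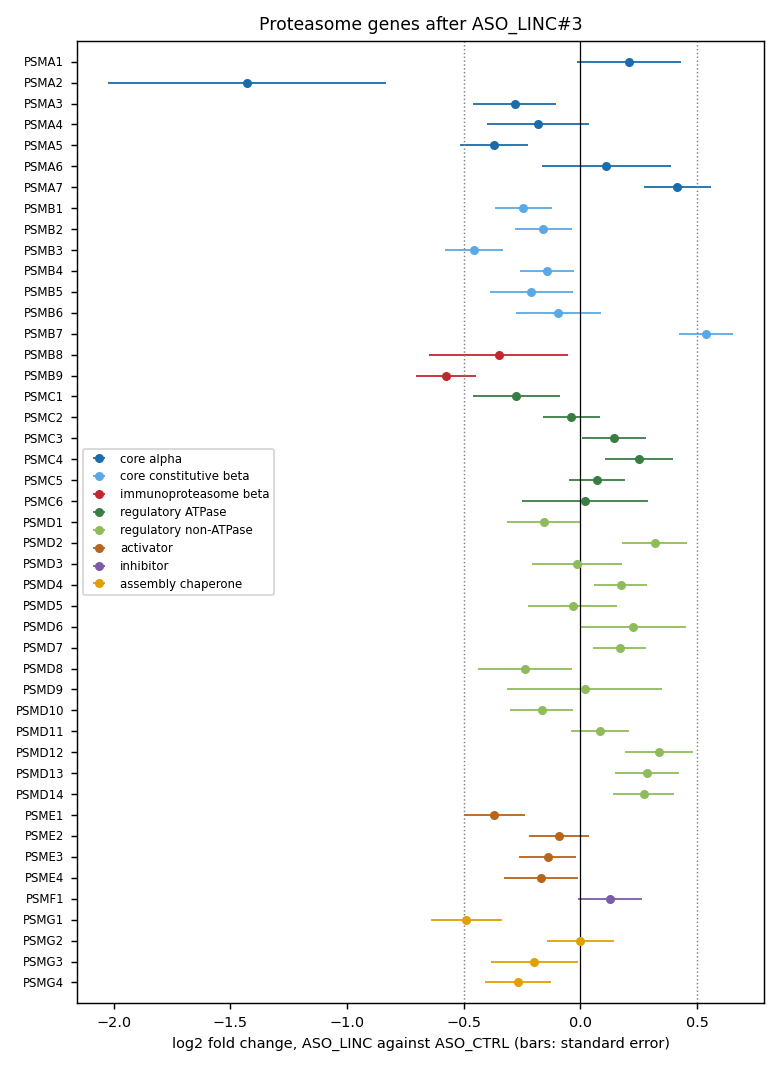
Log2 fold change of each of the 45 proteasome genes, ASO_LINC#3 against ASO_CTRL (3 libraries each), with the standard error as a bar and the colour giving the group of subunits; dotted lines stand at 0.5 in either direction. *PSMA2* (-1.43), *PSMB9* (-0.58) and *PSMB7* (0.54) lie beyond the dotted lines, and the error bar of *PSMA2* is the widest.

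The core particle held the 1 called member, and most of its other subunits had values slightly below control. Of its 14 subunits 1 was called, that is 7.14%, beside 7.54% of all tested genes. Log2 fold changes were above 0 in 4 subunits and below 0 in 10. The median was -0.17, with -0.18 over the alpha and -0.16 over the constitutive beta subunits. The core as a whole took 0.338%, 0.343% and 0.349% of the counts on genes in control libraries. In ASO_LINC#3 libraries it took 0.374%, 0.385% and 0.333%, so replicates 1 and 2 lay above all controls and replicate 3 below them. *PSMB7*, which carries the trypsin-like activity (chromosome 9, 127115744 to 127177723, GRCh37, minus strand), was counted at 353, 386 and 367 CPM in ASO_CTRL replicates 1 to 3 and at 525, 574 and 508 CPM in ASO_LINC#3 replicates 1 to 3. Every ASO_LINC#3 library lay above every control library. *PSMB7* rose 1.45-fold, a log2 fold change of 0.54 with a standard error of 0.12 and an adjusted p of 0.0099 in edgeR's quasi-likelihood test, just inside the threshold. Over the alternatives its log2 fold change lay between 0.49 and 0.60 and its adjusted p between 0.00135 and 0.0568. The call was lost under 10 of them and with glmTreat. It was lost when any 1 library other than ASO_LINC#3 replicate 3 was left out, with edgeR adjusted p from 0.024 to 0.0568, and held without ASO_LINC#3 replicate 3, at an adjusted p of 0.00138.

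*PSMA7*, an alpha subunit and in control libraries the core transcript with the most reads per length, had the next highest fold change of the core (chromosome 20, 60711789 to 60718496, minus strand). Its levels were 646, 729 and 764 CPM in control and 1025, 1056 and 772 CPM in ASO_LINC#3 libraries. ASO_LINC#3 replicates 1 and 2 stood well above all controls, while replicate 3 stood only just above the highest of them. The log2 fold change was 0.42 with a standard error of 0.14 and did not pass the test, at an adjusted p of 0.0683 by edgeR. Without ASO_LINC#3 replicate 3 it was 0.55 and past the thresholds, at an edgeR adjusted p of 0.00232. Over all alternatives this adjusted p ranged up to 0.231.

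*PSMB3*, a beta subunit without catalytic activity (chromosome 17, 36908994 to 36920478, plus strand), lay at 84.5, 86.2 and 86.0 CPM in control and at 57.8, 65.4 and 64.3 CPM in ASO_LINC#3 libraries. The control libraries were close together and all ASO_LINC#3 libraries lay below them. The ratio was 0.73, a log2 fold change of -0.45 with a standard error of 0.12 and an adjusted p of 0.0292 by edgeR, which is neither past the p-value threshold nor past the bound on the fold change. *PSMA5*, an alpha subunit, had a log2 fold change of -0.37 (adjusted p 0.101 by edgeR) at 294, 241 and 284 CPM in control and 234, 223 and 177 CPM in ASO_LINC#3 libraries. All its ASO_LINC#3 values were below the controls, and it was called lower in the fit corrected for GC content and transcript length, with -0.52 and an adjusted p of 0.00695 by edgeR.

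Among the catalytic subunits, *PSMB5* and *PSMB6* did not pass the test. *PSMB5*, with the chymotrypsin-like activity that proteasome inhibitor drugs block, was at 112, 102 and 91.6 CPM in control and 75.4, 74.96 and 114 CPM in ASO_LINC#3 libraries. ASO_LINC#3 replicates 1 and 2 were the lowest libraries and replicate 3 was the highest of all 6. The log2 fold change of *PSMB5* was -0.21 with a standard error of 0.18 (adjusted p 0.451 by edgeR), and -0.43 (adjusted p 0.0155) without ASO_LINC#3 replicate 3. *PSMB6* was at 174, 235 and 196 CPM in control and 170, 156 and 242 CPM in ASO_LINC#3 libraries, a log2 fold change of -0.09 with a standard error of 0.18, and the conditions overlapped. With 1 library left out, its value ran from -0.30 without ASO_LINC#3 replicate 3 to 0.035 without ASO_CTRL replicate 2.

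**Figure D2:**
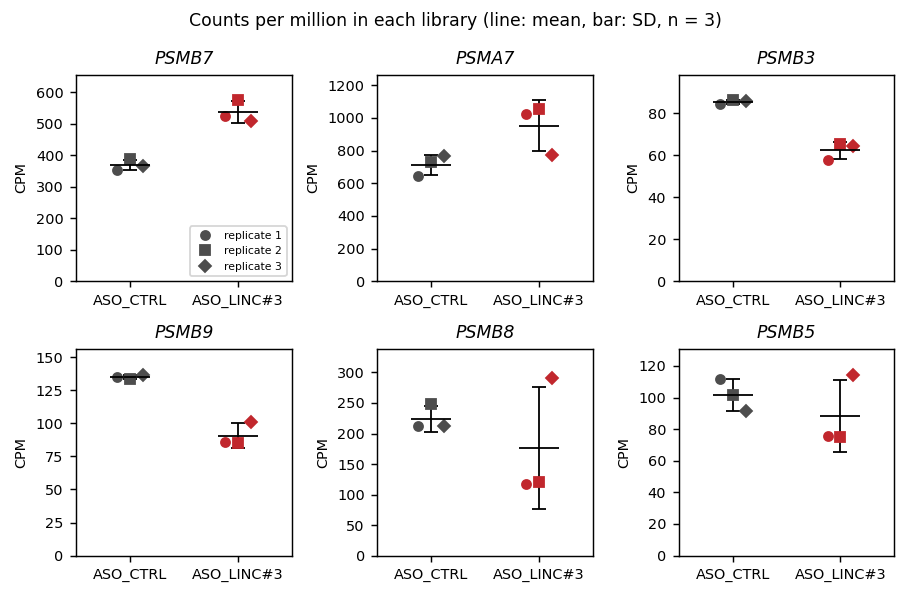
CPM of 6 subunits in each library (circle, square and diamond for replicates 1, 2 and 3; horizontal line, mean; bar, SD of 3 libraries; axes start at 0). *PSMB7* lies higher and *PSMB3* and *PSMB9* lie lower in all ASO_LINC#3 libraries, whereas for *PSMB8* and *PSMB5* the diamond of ASO_LINC#3 replicate 3 stands above all other libraries.

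*PSMA2*, an alpha subunit, had the lowest fold change of all members, and it came from 1 control library. It was counted at 82.4, 13.8 and 15.5 CPM in ASO_CTRL replicates 1 to 3 and at 13.1, 11.6 and 17.4 CPM in ASO_LINC#3 libraries, from 612, 80 and 163 reads and from 89, 68 and 64 reads. ASO_CTRL replicate 1 stood 4.75 times above the highest other library, the largest such ratio of the 10253 tested genes with more than 10 CPM in another library, and 6 of those genes were over 3 times every other library there. The log2 fold change of *PSMA2* was -1.43 with a standard error of 0.60 (adjusted p 0.124 by edgeR). Without ASO_CTRL replicate 1 it was -0.09 with a standard error of 0.23 (adjusted p 0.853 by edgeR), and the highest and lowest of all alternatives were -0.09 and -1.81.

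Both immunoproteasome genes lay below control in ASO_LINC#3 replicates 1 and 2, and neither was called over all 6 libraries. They lie beside each other in the MHC region of chromosome 6, *PSMB8* from 32808494 to 32812456 on the minus strand and *PSMB9* from 32811913 to 32827628 on the plus strand, with an overlap of 544 bases. *PSMB9* also overlaps *TAP1*, a subunit of the transporter that brings peptides into the endoplasmic reticulum, by 8608 bases on the opposite strand. These overlaps are between whole GENCODE gene spans. The RefSeq start of *PSMB9* used for its promoter below was not placed on this build, so for that transcript they may be shorter or absent. The strand setting of the counting is not given in the sources used here, so reads in the overlaps could belong to either gene. *PSMB9*, the counterpart of *PSMB6*, was at 135, 134 and 137 CPM in control and 86.3, 84.9 and 101 CPM in ASO_LINC#3 libraries. The controls were almost identical and all 3 ASO_LINC#3 libraries lay below them. The level was 0.671 of control, a log2 fold change of -0.58 with a standard error of 0.13 and an adjusted p of 0.0112 by edgeR, just outside the threshold. It passed with DESeq2 (adjusted p 0.00204), with limma-voom (0.00843), with upper quartile scaling in edgeR (0.00894), with the GC correction in edgeR (0.0037) and without ASO_LINC#3 replicate 3 (0.00067), and the highest adjusted p over the alternatives was 0.0628.

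*PSMB8*, the counterpart of *PSMB5*, differed between the ASO_LINC#3 libraries more than any other member. It was at 212, 248 and 212 CPM in control and at 118, 120 and 292 CPM in ASO_LINC#3 libraries. Replicates 1 and 2 lay well below all controls and replicate 3 above all of them. On the log2 scale the 3 ASO_LINC#3 libraries differed from the control mean by -0.92, -0.89 and 0.39. Over all libraries the log2 fold change was -0.35 with a standard error of 0.30 and an adjusted p of 0.453 by edgeR. Without ASO_LINC#3 replicate 3 it was -0.91 and past the thresholds, with an adjusted p of 0.000174 by edgeR, and over all alternatives the adjusted p ranged up to 0.84. With the GC correction the 3 libraries were at -0.78, -0.75 and 0.25, so that the split between them remained.

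Per kilobase of transcript, the immunoproteasome subunits were not rare in these cells. In control libraries *PSMB8* was at 199 CPM per kilobase beside 97.4 for *PSMB5*, and *PSMB9* at 133 beside 245 for *PSMB6*. The ratio of *PSMB8* to *PSMB5* was 1.76, 2.27 and 2.15 in control and 1.45, 1.49 and 2.37 in ASO_LINC#3 libraries, with ASO_LINC#3 replicate 3 the highest of all. The ratio of *PSMB9* to *PSMB6* was 0.627, 0.462 and 0.566 in control and 0.411, 0.441 and 0.340 in ASO_LINC#3 libraries, so that all ASO_LINC#3 libraries were below all controls. For this ratio, the smallest two-sided p that an exact permutation test of 3 against 3 libraries allows is 0.1.

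The promoters of the immunoproteasome subunit *PSMB9* and the constitutive subunit *PSMB3* are shown because these genes are the beta subunits with a lower level in every ASO_LINC#3 library and an adjusted p below 0.05, and both windows hold the same pair of motifs. The windows are the 250 bases before the RefSeq start on GRCh38.p14, which is another build than that of the counts, at chr6:32853942-32854191 (plus strand) and chr17:38752491-38752740 (plus strand). Capitals mark the core of the antioxidant response element, the site bound by NFE2L1 and NFE2L2 with a small MAF protein (TGACNNNGC on either strand), and the CCAAT box, bound by NF-Y.
PSMB9: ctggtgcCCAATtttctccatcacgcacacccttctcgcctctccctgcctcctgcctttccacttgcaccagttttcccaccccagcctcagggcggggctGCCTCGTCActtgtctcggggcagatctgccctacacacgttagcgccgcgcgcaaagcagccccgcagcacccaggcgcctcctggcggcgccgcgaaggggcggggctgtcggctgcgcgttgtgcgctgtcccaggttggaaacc
PSMB3: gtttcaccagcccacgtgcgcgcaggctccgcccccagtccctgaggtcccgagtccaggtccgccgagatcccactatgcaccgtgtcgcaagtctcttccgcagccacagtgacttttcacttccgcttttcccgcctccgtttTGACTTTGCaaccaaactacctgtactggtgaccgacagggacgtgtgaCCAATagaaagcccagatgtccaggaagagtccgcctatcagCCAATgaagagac

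In the *PSMB9* window the antioxidant response element core reads on the reverse strand, 148 bases before the start, and the CCAAT box starts 243 bases before it. In *PSMB3* the core starts 104 bases before the start, and CCAAT boxes start 55 and 13 bases before it. RefSeq windows of 250 bases before and 50 after a start were matched for 39 of the 45 members (48 windows). *PSMA7*, *PSMB1*, *PSMB6*, *PSMB7*, *PSMD4* and *PSMG3* had no entry. The antioxidant response element core was found in 31.2% of the members' windows and 13.3% of all 35116 windows. The ETS site CCGGAAG, searched on both strands like the others, was in 29.2% and 10.3%, and CCAAT in 39.6% and 34.6%. The interferon-stimulated response element, searched as TTTC followed after any 2 bases by TTTC, was in 12.5% and 3.57%, in *PSMA4*, *PSMB4*, *PSMB8*, *PSME1*, *PSME2* and *PSMG4*, and the gamma-interferon activated site TTCNNNGAA in 14.6% and 7.66%, with *PSMB8* again among them. The kappa B site, searched as GGGA, any base and TTTCC, was in 0 of the 48 windows and 0.558% of all. A match of letters is a description of the sequence and not a bound site.

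The regulatory particle held no called gene: 0 of its 20 genes passed the thresholds, and 0 had an adjusted p below 0.05 in edgeR's test, while 2 had an unadjusted p below 0.05. Over all tested genes these shares were 7.54%, 18.0% and 32.4%. Log2 fold changes ran from -0.27 to 0.34, with 13 above 0 and 7 below, and the median was 0.08. This median stayed above 0 in all 18 settings for which it was computed, between 0.025 and 0.14. In 6 genes, all of them non-ATPases, the ASO_LINC#3 libraries lay above the controls without overlap. That is 30.0% of the group, where 18.7% of all tested genes did so. In 0 genes of the group the ASO_LINC#3 libraries lay below without overlap, where 17.3% of all tested genes did so. These 6 were *PSMD2*, the large scaffold of the base, *PSMD4*, a ubiquitin receptor, *PSMD7* and *PSMD14*, a pair of lid subunits of which *PSMD14* is the deubiquitinase, and the lid subunits *PSMD12* and *PSMD13*. The regulatory particle took 0.261%, 0.270% and 0.259% of the counts on genes in control and 0.282%, 0.280% and 0.307% in ASO_LINC#3 libraries. Each ASO_LINC#3 library held more than each control library.

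*PSMD12* had the highest fold change of the regulatory particle over all libraries. It lay at 68.2, 93.8 and 86.3 CPM in control and 108, 107 and 98.7 CPM in ASO_LINC#3 libraries, a log2 fold change of 0.34 with a standard error of 0.15 (adjusted p 0.137 by edgeR). ASO_CTRL replicate 1 was the lowest library, and the gap between the conditions was small. The log2 fold change was 0.22 without ASO_CTRL replicate 1 and 0.190 with the GC correction. With that correction *PSMD13* (0.28), *PSMD14* (0.27), *PSMD6* (0.27), *PSMD2* (0.24), *PSMC4* (0.23), *PSMD4* (0.196) and *PSMD7* (0.195) were above it. *PSMD2* was at 427, 394 and 370 CPM in control and 470, 433 and 584 CPM in ASO_LINC#3 libraries, a log2 fold change of 0.32 (adjusted p 0.14 by edgeR), with replicate 3 the highest. Without that library it was 0.19. *PSMD14*, the deubiquitinase of the lid, was at 219, 219 and 213 CPM in control and 280, 281 and 223 CPM in ASO_LINC#3 libraries, with a log2 fold change of 0.27 and an edgeR adjusted p of 0.177.

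*PSMD8*, a lid subunit, had the lowest fold change of the non-ATPases. It was at 240, 260 and 228 CPM in control and 167, 166 and 287 CPM in ASO_LINC#3 libraries. As for *PSMB8*, replicates 1 and 2 were below all controls and replicate 3 above all. Its log2 fold change was -0.24 over all libraries (adjusted p 0.449 by edgeR) and -0.54 without ASO_LINC#3 replicate 3 (adjusted p 0.00275, past the thresholds), within a range of adjusted p up to 0.815 over the alternatives. The ATPase *PSMC1* had the same order, with 50.9, 50.2 and 48.5 CPM in control and 34.1, 35.6 and 55.3 CPM in ASO_LINC#3 libraries, and was called lower, with a log2 fold change of -0.52, only in the fit without ASO_LINC#3 replicate 3 (edgeR adjusted p 0.00538; 0.338 over all libraries, at most 0.711 over the alternatives). *PSMC4* had the highest value of the 6 ATPases over all libraries, with 57.2, 53.9 and 47.7 CPM in control, 56.7, 59.6 and 73.2 CPM in ASO_LINC#3 libraries and a log2 fold change of 0.25 (adjusted p 0.271 by edgeR). Without ASO_LINC#3 replicate 3 it was 0.14, below the 0.20 of *PSMC6*. The conditions overlapped in all 6 ATPases.

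Of the activators and the inhibitor, 0 of 5 were called, where 7.54% of all tested genes were. Their median log2 fold change was -0.14. In edgeR's test 1 of the 5 had an unadjusted p below 0.05, where 32.4% of all tested genes did. That 1 was *PSME1*, which forms with *PSME2* the interferon-inducible ring that opens the core. It was at 484, 578 and 539 CPM in control and 382, 388 and 471 CPM in ASO_LINC#3 libraries. All ASO_LINC#3 libraries were below the controls, by a narrow margin in replicate 3. The log2 fold change of *PSME1* was -0.37 with a standard error of 0.13 (adjusted p 0.0765 by edgeR), and -0.47 (adjusted p 0.00692) without ASO_LINC#3 replicate 3, where it missed the bound on the fold change. Over all alternatives the adjusted p was at most 0.255. Its partner *PSME2*, at 105, 101 and 102 CPM in control and 87.9, 94.6 and 107 CPM in ASO_LINC#3 libraries, was at -0.09, and *PSMF1*, the inhibitor, at 45.4, 44.4 and 43.3 against 49.97, 42.3 and 53.4 CPM, was at 0.13. In these 2 genes the conditions overlapped. Without ASO_LINC#3 replicate 3, *PSME2* was at -0.17 and *PSMF1* at 0.06.

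Among the 4 chaperones that assemble the core, 0 were called, where 7.54% of all tested genes were. Their median log2 fold change was -0.23. *PSMG1*, which pairs with *PSMG2* to gather the alpha subunits into a ring (chromosome 21, 40546695 to 40555414, minus strand), was at 79.6, 90.0 and 97.4 CPM in control and 56.4, 59.2 and 75.4 CPM in ASO_LINC#3 libraries. All ASO_LINC#3 libraries were below the controls, replicate 3 by the smallest distance. *PSMG1* had a log2 fold change of -0.49 with a standard error of 0.15 and an adjusted p of 0.0481 by edgeR. Without ASO_LINC#3 replicate 3 it was called lower, at -0.62 and an adjusted p of 0.00254 by edgeR, and over all alternatives the adjusted p was at most 0.185. *PSMG2* was at 164, 178 and 183 CPM in control and 192, 190 and 142 CPM in ASO_LINC#3 libraries, a log2 fold change of 0.0004, so the partners of this pair had different values. The difference between them was not tested.

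Replicates of both conditions differed by more than sampling noise. Over all genes, chi-square per degree of freedom was 11.9, 8.25 and 6.94 between the pairs of control libraries. It was 2.5 between ASO_LINC#3 replicates 1 and 2, and 13.0 and 14.0 between these and replicate 3. ASO_LINC#3 replicate 3, the library with the fewest reads, thus stood apart from the other ASO_LINC#3 libraries, which were the closest pair. The log2 CPM of replicate 3 differed from the mean of replicates 1 and 2 by a median of 0.29 (absolute value over the 45 members), whereas replicates 1 and 2 differed by 0.0833. It was more than 0.5 from them in 12 members, 9 above and 3 below (*PSMA1*, *PSMC6* and *PSMD6*), a distance that 0 members reached between replicates 1 and 2. The difference followed the GC content of the transcript, which runs from 36.4% to 59.4% over the members: the correlation was 0.569 over 45 genes, beside 0.151 for the difference of replicates 1 and 2 and 0.57 over 12784 tested genes. These points share the same libraries and genes are not independent replicates, so the correlation is a description. Removing the trend on GC content and length brings this correlation near 0 by construction, and it was then 0.034. After this removal the median difference was 0.225 and 9 members lay beyond 0.5, 6 of those 12 members and 3 that had been within it (*PSMA2*, *PSMA7* and *PSMG1*). *PSMB8* was still at 1.01 and *PSMD8* at 0.40, from 1.29 and 0.78 before the correction.

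**Figure D3:**
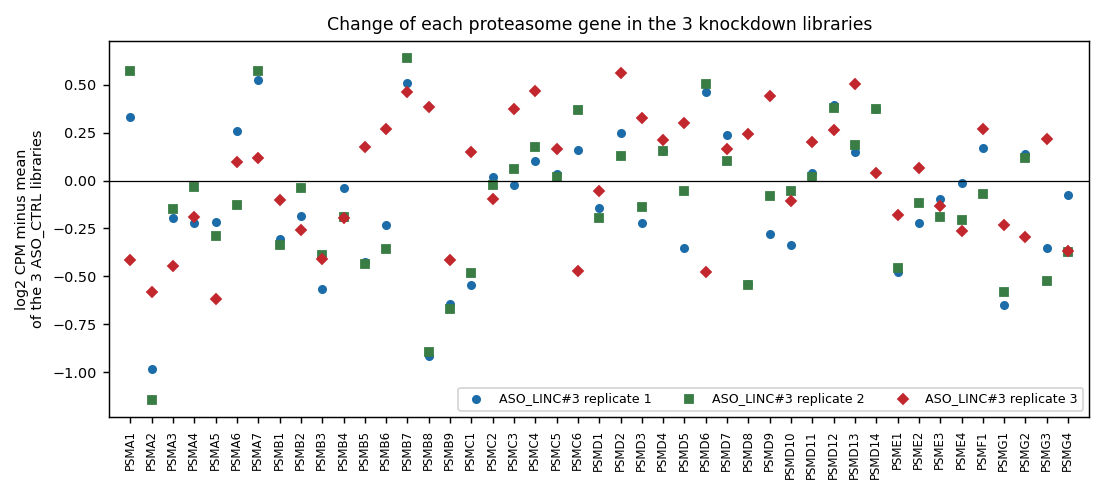
Change of each member in the 3 ASO_LINC#3 libraries, as log2 CPM minus the mean of the 3 control libraries (circles, squares and diamonds for replicates 1, 2 and 3). Circles and squares lie close together, while the diamond of replicate 3 stands apart in 12 members by more than 0.5, among them *PSMB8*, *PSMD8* and *PSMD6*.

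**Figure D4:**
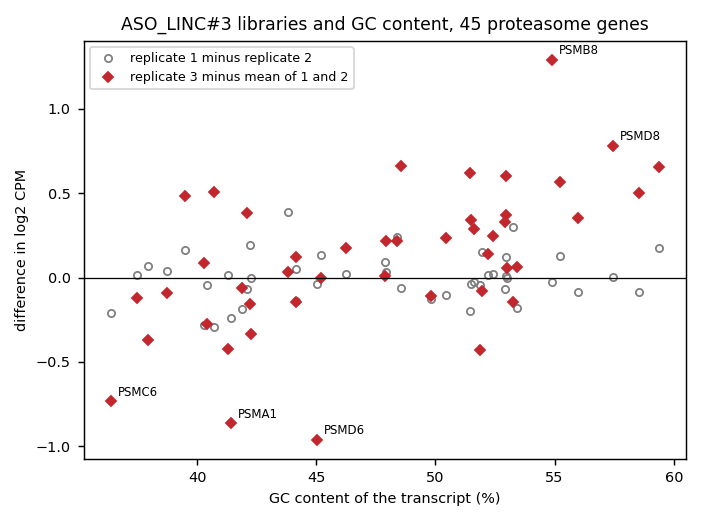
Difference in log2 CPM between ASO_LINC#3 replicate 3 and the mean of replicates 1 and 2 (diamonds), and between replicates 1 and 2 (open circles), against the GC content of the transcript, for 45 proteasome genes. Diamonds rise with GC content (r = 0.569), while open circles stay near 0 (r = 0.151).

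The number of called members therefore depended on that library. Without it, 7 members were called (*PSMA7* and *PSMB7* higher; *PSMB8*, *PSMB9*, *PSMC1*, *PSMD8* and *PSMG1* lower), where 17.2% of all tested genes were called in the same fit (9.42% higher and 7.81% lower). With all 6 libraries and the correction for GC content and length, 3 were called (*PSMB7* higher; *PSMA5* and *PSMB9* lower), where 11.8% of all tested genes were (6.51% higher and 5.27% lower). The median over all members was -0.14 without the library and -0.12 with the correction, and the median of the 2 immunoproteasome genes was -0.78 and -0.44. *PSMB7* alone was called in both of these fits and in that of all 6 libraries without the correction.

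Levels of the core subunits, which enter the particle in equal number, spread widely on the scale of CPM per kilobase. In control libraries they ran from 2.24 for *PSMA4* and 2.97 for *PSMA6* to 663 for *PSMB4* and 741 for *PSMA7*. The regulatory genes ran from 1.09 for *PSMD9*, a chaperone of base assembly, to 160 for *PSMD8*. Reads of several members can be placed on near-identical copies. Of the members, 9 had rows for processed copies in the table (15 pseudogenes), and for *PSMA6* these held 96.6% of the reads of gene and copies together, for *PSME2* 48.3%, for *PSMC1* 42.8%, for *PSMA2* 18.1% and for *PSMB3* 16.3%. *PSMA1*, *PSMA2*, *PSMA6*, *PSMC2* and *PSMD9* also overlap another protein-coding entry on the same strand, in part or almost in full. These levels are therefore uncertain.

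Adding the reads of the copies to their genes left 0 of these 9 members called, in a fit that called 1109 genes of all tested. For *PSMA6* the sum was 119, 47.8 and 133 CPM in control and 62.9, 57.7 and 82.4 CPM in ASO_LINC#3 libraries, a log2 fold change of -0.57 (adjusted p 0.231 by edgeR), where the gene alone, at 2.58 to 3.67 CPM, had 0.11. The summed controls ranged around the ASO_LINC#3 libraries. For *PSMB3* the sum gave -0.41 with an adjusted p of 0.0393 by edgeR, and for *PSMC1* -0.15 with 0.495. *PSME2* was at -0.27 with its copies (adjusted p 0.316 by edgeR) and at -0.09 alone. In *PSMA2* the copies were also highest in ASO_CTRL replicate 1, with 22.8 CPM beside 0.542 to 3.44 CPM in the other 5 libraries.

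**Figure D5:**
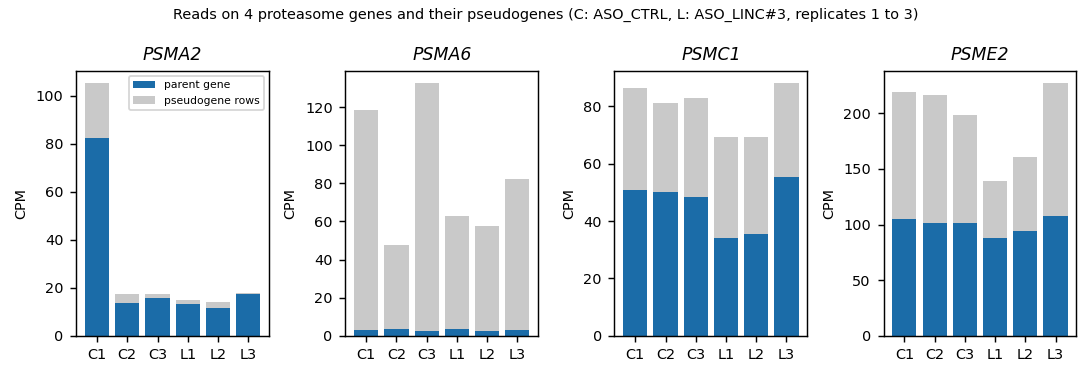
CPM on 4 proteasome genes (blue) and on the rows of their pseudogenes (grey) in each library (C1 to C3, ASO_CTRL; L1 to L3, ASO_LINC#3; axes start at 0). Nearly all reads of the *PSMA6* family are on the pseudogene rows, and ASO_CTRL replicate 1 stands alone for *PSMA2* and its copies.

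Genes around the proteasome were read as 3 lists with the same fit. Of 13 partner proteins, among them the subunits *ADRM1* and *SHFM1* and the assembly factor *POMP*, 0 were called and 3 had an unadjusted p below 0.05, where 7.54% and 32.4% of all tested genes did, and the median log2 fold change was -0.02. *POMP*, which completes the core, was at 85.5, 40.4 and 60.1 CPM in control and 49.8, 48.1 and 47.2 CPM in ASO_LINC#3 libraries, a log2 fold change of -0.36 (adjusted p 0.303 by edgeR). Control libraries lay on both sides of the ASO_LINC#3 values. *ADRM1*, a ubiquitin receptor named here after its values were seen, was called lower without ASO_LINC#3 replicate 3, with -0.58 and an adjusted p of 0.00755 by edgeR, against 0.686 over all libraries.

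In the list of the NFE2L1 axis and ubiquitin supply, 4 of 22 genes were called higher and 0 lower (18.2%, where 7.54% of all tested genes were called), with a median of 0.14. *MAFF*, a small MAF protein that pairs with NFE2L1 and NFE2L2, was at 21.8, 19.5 and 18.6 CPM in control and 73.9, 76.2 and 70.2 CPM in ASO_LINC#3 libraries. It rose 3.68-fold (log2 fold change 1.88, standard error 0.14, adjusted p 1.97e-05 by edgeR), far beyond the spread of either condition. The small MAF *MAFG*, at 43.4, 51.8 and 46.6 CPM in control and 100.2, 105 and 107 CPM in ASO_LINC#3 libraries, rose as well (log2 fold change 1.14, edgeR adjusted p 0.0003).

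*SQSTM1*, an autophagy receptor for ubiquitinated proteins, rose from 1879 ± 51.8 to 3121 ± 163 CPM (SD, n = 3; log2 fold change 0.73, adjusted p 0.00129 by edgeR); it is named here after its values were seen. All 4 called genes of the list were also called without ASO_LINC#3 replicate 3. *NFE2L1* itself, the factor that raises proteasome genes when proteasome activity drops, was at 72.9, 88.1 and 76.6 CPM in control and 112, 105 and 123 CPM in ASO_LINC#3 libraries. All ASO_LINC#3 libraries were higher, with a log2 fold change of 0.52 and an adjusted p of 0.023 by edgeR, which did not pass. *DDI2*, the protease that activates NFE2L1, was at 11.5, 22.2 and 15.0 CPM in control and 20.1, 23.8 and 18.4 CPM in ASO_LINC#3 libraries (log2 fold change 0.38, adjusted p 0.298 by edgeR), and the conditions overlapped.

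Of the 20 genes of interferon signalling and peptide supply to MHC class I, 19 were tested, and *JAK2* did not pass the filter. In this list 2 genes were called higher and 0 lower (10.5%), where 7.54% of all tested genes were called, with a median of 0.11. *JAK1*, a kinase of interferon receptors, was at 44.04, 38.7 and 36.9 CPM in control and 66.0, 65.5 and 66.2 CPM in ASO_LINC#3 libraries (log2 fold change 0.72, adjusted p 0.0044 by edgeR). *ERAP2*, a peptidase that trims peptides in the endoplasmic reticulum, was at 31.3, 26.2 and 26.1 CPM in control and 53.9, 56.8 and 42.3 CPM in ASO_LINC#3 libraries (log2 fold change 0.88, adjusted p 0.00429 by edgeR). Both rose in every ASO_LINC#3 library. *IRF1*, a transcription factor that raises immunoproteasome genes, was at 31.3, 24.1 and 24.7 CPM in control and 29.4, 29.8 and 36.1 CPM in ASO_LINC#3 libraries and did not pass the test (log2 fold change 0.24, adjusted p 0.34 by edgeR). *TAP1*, the neighbour of *PSMB9*, was at 108, 112 and 113 CPM in control and 94.2, 95.2 and 107 CPM in ASO_LINC#3 libraries. Its ASO_LINC#3 libraries were all just below the controls, with a log2 fold change of -0.17 and an adjusted p of 0.374 by edgeR.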

How the data were processed

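RNA of 3 ASO_CTRL and 3 ASO_LINC#3 libraries of H226 cells was copied with oligo-dT primers. Per the submitters' processing notes, reads were aligned to hg19 with STAR and analysed with edgeR. The authors deposited whole-number read counts per gene name, without normalization or pooling. The counting tool, annotation and strand setting are not given in the sources used here, and annotation and mapping choices decide how reads of overlapping genes and pseudogenes are placed. The 4 totals of reads assigned to no gene (24.8% to 28.1% of a library) were left out.

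Counts were filtered by filterByExpr, scaled by TMM and compared in R 4.3.3 with edgeR 4.0.16 (quasi-likelihood F-test, no block, no robust estimation), with Benjamini-Hochberg adjustment over all 14660 genes. CPM are given relative to the TMM-scaled total of counts on tested genes, and changes of single libraries as log2 CPM with a prior count of 2. The common biological coefficient of variation was 0.159. Replicates differed by more than sampling noise (chi-square per degree of freedom 2.5 to 14.0). Groups and replicate numbers came from the sample labels. The members and gene lists were chosen with earlier results of these data known. Values in every library were given for members called or with an adjusted p below 0.05, for exchanged catalytic subunits and for the extremes of each group; from the lists, for at most 3 called genes in a direction and *NFE2L1*, *DDI2*, *IRF1*, *TAP1* and *POMP*. Values of 2 further genes under this rule are not reported here. *PSMA5*, *PSMD2*, *PSMD14* and the printed promoters were added after values were seen.

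On simulated counts (14445 genes fitted), edgeR called 38 of the 96 genes given a log2 change of 1, 96 of the 98 given 2, and 4 of the 14251 left unchanged. Alternatives were DESeq2 1.42.0, limma-voom (limma 3.58.1), other scalings, filters and thresholds, robust dispersion, glmTreat, a block for the replicate number, fits without 1 library each, and offsets for GC content and transcript length (splines with 5 degrees of freedom). Adding pseudogene reads to their genes was chosen after seeing the data. For positions, GC content and transcript length a GENCODE annotation on GRCh37 was used, which covered 87.2% of the tested genes, and promoters from RefSeq. Figures were drawn with matplotlib 3.10.9.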

Additional observations from a re-analysis of the deposited data

How the results depend on the processing

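The number of members called was 2 with DESeq2 and with limma-voom (*PSMB7* and *PSMB9* in both), 2 at an adjusted p below 0.05 with the same bound, 3 with the GC content and length correction, and 0 without a filter, with at least 10 counts in every library, with robust dispersion and with glmTreat; leaving out 1 library gave 0 to 7. Upper quartile scaling called 1 member, *PSMB9* in place of *PSMB7*. The number of all genes called was 384 with glmTreat, 1727 with the GC correction, 2465 at an adjusted p below 0.05 and 359 to 2616 with 1 library left out. The median of the core was -0.19 with upper quartile scaling, -0.20 with pseudogene reads added and -0.20 to -0.13 with 1 library left out. With a replicate block 0 members and 656 genes were called, and with the block and the GC correction 1 member and 1225 genes. Deviations of same-numbered libraries from their group mean correlated at 0.059, -0.15 and -0.18, and those of differently numbered libraries at -0.14 to 0.19. With 3 libraries in a group, such correlations cannot decide whether the numbers pair the libraries.

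*PSMB6* turned to 0.035 without ASO_CTRL replicate 2 and 0.029 without ASO_LINC#3 replicate 2, and was lowest, at -0.30, without ASO_LINC#3 replicate 3. *PSMG2*, at 0.0004, turned to -0.0067 with limma-voom, -0.020 with upper quartile scaling, -0.0063 with at least 10 counts in every library and -0.012 with the block, and ran from -0.072 to 0.13 with 1 library left out. Of the values of the 17 members that the naming rule gave, under the alternatives, 277 kept direction and side of the threshold, 10 gained a call, 10 lost one and 9 turned. Fewer genes tested or fewer libraries move the adjusted p by construction; other causes were not tested. *PSMA6* and *PSMD9*, at 2.10 to 4.07 CPM, rest on few reads.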
